A study of Mus musculus with 9 samples.

Results

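The genes followed here belong to the axis of vessel growth and are 10 of the 32285 mouse genes counted in every library. They were taken by gene symbol and are the ligands Vegfa, Vegfc, Angpt1, Angpt2 and Apln, the endothelial receptors Kdr, Flt1, Flt4 and Tek, and Esm1, a proteoglycan secreted by growing vessels. No measured value was a criterion of the choice, although earlier results of these data were known when it was made.

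VEGF-A binds KDR (VEGFR2), the receptor that drives endothelial growth, and FLT1 (VEGFR1), which binds it tightly and signals weakly. VEGF-C is the main ligand of FLT4 (VEGFR3), known from lymphatic vessels and from sprouting blood vessels. Angiopoietin 1 activates TEK (Tie2) and keeps vessels quiet, whereas angiopoietin 2 is made by endothelium under remodeling and often opposes it. Apelin and ESM1 are known products of endothelial tip cells, the leading cells of a sprout. In normal brain, astrocytes are a known source of VEGF-A.

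The data came from 5 mice with an EP ZFTA-RELA ependymoma (genotype NestinCreERT2;Fus1) and 4 control mice (NestinCreERT2;TdT), age-matched at 6 to 8 weeks. Both groups carried the NestinCreERT2 allele, and the labels give no further treatment. In the tumor mice a conditional ZFTA-RELA fusion at the Rosa26 locus was recombined in embryonic radial glia, so the fusion could be borne by any cell descended from them, whereas vessels and immune cells arise elsewhere. Tumor or brain tissue was dissociated, passed through Percoll and sorted with DAPI and an antibody to the erythroid marker Ter119, and the 5′ ends of transcripts were counted in droplets as unique molecular identifiers (UMIs). The study's methods for single-cell libraries also name CD45 antibodies, given by vein and in the stain. They do not say whether CD45 was gated in these libraries. Each mouse was 1 sample, and cells of a mouse were never used as replicates.

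The libraries held 101060608 to 178086164 UMIs in controls and 14967680 to 69411387 in tumors. Controls had 75222 to 86516 deposited barcodes and tumors 9001 to 26341. Of each library at most the 10000 largest barcodes by UMIs entered the filters, which left 3985 to 5909 cells per control and 1577 to 5114 per tumor, with 12939791 to 21498907 and 5900479 to 37614621 UMIs. Any 2 of 8 libraries shared at most 0.262% of the kept barcodes of the smaller one, and control 4, whose barcode list is incomplete, was not compared. A UMI of the fusion or of its luciferase reporter was seen in 3.30% to 72.8% of kept cells in the 5 tumors and in 0 in the controls.

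On the mouse assembly GRCm38 (mm10) the ligand genes lie at chr17:46016993-46032369 (Vegfa, minus strand), chr8:54077606-54187096 (Vegfc, plus), chr15:42424723-42676977 (Angpt1, minus), chr8:18690263-18741562 (Angpt2, minus) and chrX:48025146-48034853 (Apln, minus). The receptor genes lie at chr5:75932827-75978458 (Kdr, minus), chr5:147561604-147726011 (Flt1, minus), chr11:49609263-49652739 (Flt4, plus) and chr4:94739289-94874976 (Tek, plus). Esm1 lies at chr13:113209659-113218098 on the plus strand.

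RefSeq promoters (GRCm38.p6) were listed for 8 of the 10 genes and not for Angpt1 and Angpt2. The 250 bases before the start are printed for 4 genes: Kdr and Flt1, the gene whose levels across cell types were most like those of Kdr, and Apln and Esm1, 2 products of growing vessels. Capitals mark 2 motif families on either strand. These are the core of the hypoxia response element (ACGTG or GCGTG), present in 38.6% of 32851 promoters of the same length, and an ETS core (AGGAAG or CGGAAG), present in 39.2%. ETS factors are the transcription factors best known from endothelium. No 2 of the marked matches overlap.
Kdr: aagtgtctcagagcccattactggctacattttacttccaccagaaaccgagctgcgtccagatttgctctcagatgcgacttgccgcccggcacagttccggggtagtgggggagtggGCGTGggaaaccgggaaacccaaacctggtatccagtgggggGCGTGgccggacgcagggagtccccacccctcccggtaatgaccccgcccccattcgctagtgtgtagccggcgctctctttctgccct
Flt1: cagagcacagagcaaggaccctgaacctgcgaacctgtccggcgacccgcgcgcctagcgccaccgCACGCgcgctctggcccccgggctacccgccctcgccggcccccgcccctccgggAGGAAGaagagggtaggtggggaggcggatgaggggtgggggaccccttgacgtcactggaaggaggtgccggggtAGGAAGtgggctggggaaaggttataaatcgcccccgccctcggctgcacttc
Apln: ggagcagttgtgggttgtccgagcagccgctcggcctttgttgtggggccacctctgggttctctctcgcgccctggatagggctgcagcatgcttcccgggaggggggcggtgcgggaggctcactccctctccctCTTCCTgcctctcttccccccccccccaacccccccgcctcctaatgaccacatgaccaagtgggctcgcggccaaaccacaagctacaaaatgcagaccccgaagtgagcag
Esm1: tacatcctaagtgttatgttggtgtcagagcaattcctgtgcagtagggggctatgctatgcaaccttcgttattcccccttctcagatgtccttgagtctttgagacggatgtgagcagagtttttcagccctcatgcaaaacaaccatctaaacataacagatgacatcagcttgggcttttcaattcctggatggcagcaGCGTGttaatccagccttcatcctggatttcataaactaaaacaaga
The Kdr window (chr5:75978456-75978705, minus strand) held 2 matches of the hypoxia core and 0 of the ETS core. The Flt1 window (chr5:147726012-147726261, minus strand) held 1 and 2. The Apln window (chrX:48034854-48035103, minus strand) held 0 and 1, and the Esm1 window (chr13:113209409-113209658, plus strand) held 1 and 0. With cores this common, the counts describe these letters only.

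To ask which cells carry each receptor and which make each ligand, cells were assigned to 14 types by 10 marker genes each. None of the 10 genes was among the markers. A cell was gated to a type when it held at least 3 of the 10 markers, its mean marker score was at least 0.5 and no other type reached 0.5 of that score. The limits were set after seeing the markers' values, and cells that met no gate are called ungated.

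Endothelial-gated cells made up a larger share of the tumors than of the control brains. They numbered 12, 16, 15 and 13 in controls 1 to 4, which is 0.203%, 0.319%, 0.376% and 0.279% of kept cells. They numbered 130, 150, 151, 136 and 79 in tumors 1 to 5, which is 5.50%, 4.91%, 9.58%, 2.66% and 2.17%. Every tumor lay above every control. The means were 4.96% ± 2.94 (SD, n = 5) and 0.294% ± 0.0728 (SD, n = 4), a difference of 4.67 percentage points with a two-sided exact permutation p of 0.0159, the smallest that 5 against 4 mice allow. A share of dissociated and sorted cells need not be the share in the tissue. With a fixed limit of 10% on mitochondrial UMIs in place of the mixture, 13 control cells (2 to 4 per mouse) and 884 tumor cells were endothelial-gated, at mean shares of 0.0771% and 4.08%. The part of the mitochondrial share, or of the gene count that the mixture also used, in the results on endothelial-gated cells was not tested.

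The markers of these cells were then read. The gate was drawn on the same 10 endothelial markers, so their presence does not test the label. All 10 endothelial markers, among them Cldn5 and Cdh5 of endothelial junctions, were detected in the endothelial-gated cells of each of the 9 mice. Their summed level was 4875 to 7341 CPM (UMIs of the genes per 1000000 UMIs of the gated cells) in controls and 9487 to 19006 CPM in tumors. Markers of other cell types differed between the groups in both directions. The summed level of the 10 mural markers, genes of pericytes and smooth muscle, was 1662 to 2128 CPM in the control endothelial gate and 37.4 to 1242 CPM in the tumor gate, with medians of 5 to 8 and 0 to 2 UMIs per cell. Neuronal markers summed to 2572 to 3742 CPM and 92.6 to 1084 CPM, astrocyte markers to 1243 to 2119 CPM and 550 to 1717 CPM, and oligodendrocyte markers to 1431 to 2025 CPM and 329 to 1532 CPM. The other way round, neural progenitor markers summed to 111 to 332 CPM in the control gate and 146 to 1749 CPM in the tumor gate, neutrophil markers to 0 to 34.3 CPM and 19.6 to 538 CPM, and phagocyte markers to 206 to 484 CPM and 362 to 831 CPM. In tumor 3 erythroid markers reached 2041 CPM, against at most 217 CPM in the other mice. The part of these differences in the results on endothelial-gated cells was not tested. Of the 646 tumor cells 69 lay just inside a limit of the gate, as did 10 of the 56 control cells, and 89 and 12 cells lay just outside. In Leiden clusters 596 of the tumor cells and all 56 control cells lay in cluster 13, which was named endothelial by the same markers.

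The receptors were concentrated in endothelial-gated cells. Each gated type was compared with all other cells of the same mouse (edgeR quasi-likelihood test with the mouse as a block, Benjamini-Hochberg adjustment over all genes tested). Against other cells, Tek was higher in endothelial-gated cells by 6.01 ± 0.22 (log2 fold change ± SE, n = 9 mice, adjusted p = 2.57e-14). Kdr was higher by 5.97 ± 0.24 on the same scale (adjusted p = 4.47e-14) and Flt1 by 6.27 ± 0.26 (adjusted p = 7.91e-14). Flt4 did not pass the filter on low counts. In this comparison 40.3% of 12430 genes were called, 14.4% higher and 25.9% lower, and the median of all genes was -0.23, or -0.38 when scaled by DESeq2. The 3 receptors lay far above that shift under both scalings.

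Angpt2 and Apln, although ligands, were also higher in endothelial-gated cells, by 4.69 ± 0.49 (adjusted p = 2.06e-07) and 3.91 ± 0.46 (adjusted p = 1.28e-06; edgeR, n = 9 mice). These values average over all 9 mice, and the endothelial-gated cells of 3 controls held no UMI of Angpt2 and those of 2 controls none of Apln. Vegfa and Angpt1, the ligands of KDR with FLT1 and of TEK, fell on the other side. Their log2 fold changes in endothelial-gated against other cells were -2.37 ± 0.31 (adjusted p = 4.85e-06) and -1.74 ± 0.43 (adjusted p = 0.00268). Of the 10 genes 7 could be tested here and all 7 were called, Angpt1 with an adjusted p of 0.183 under limma voom. Esm1, Vegfc and Flt4 were too low for the filter.

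Counted over the tumors, endothelial-gated cells held 77.2% of all Tek UMIs (48.2% to 89.0% in single tumors), 70.5% of Flt1 (44.8% to 86.3%), 70.0% of Kdr (49.7% to 82.9%) and 65.2% of Flt4 (27.7% to 79.7%). They held 59.9% of Angpt2 (44.5% to 82.1%), 47.7% of Apln (28.5% to 63.4%) and 58.3% of Esm1 (0% to 100%, on few UMIs). In contrast, of the tumors' Vegfa UMIs 68.1% lay in ungated cells (42.0% to 76.1%), and 0.833% in endothelial-gated cells. Neural progenitor-gated cells held 13.01% of Vegfa (0% to 31.6%, median 3.98%) and astrocyte-gated cells 7.38% (3.44% to 33.5%, median 5.57%), so the order of these types by the pooled share is not the order by the median. Angpt1 had 67.2% in ungated cells (40.4% to 73.5%), 10.7% in neural progenitor-gated cells (4.55% to 21.8%, median 8.80%) and 9.77% in astrocyte-gated cells (4.05% to 41.7%, median 13.6%), and here too the median turns the order. Vegfc, seen in 696 UMIs in all, had 69.7% in ungated cells (30.2% to 75.8%) and 7.47% in endothelial-gated cells (0% to 65.1%). A UMI of the fusion or luciferase was seen in 3.85%, 42.0%, 8.55%, 83.0% and 33.5% of the ungated cells of tumors 1 to 5. Of all 83308139 UMIs of the tumors, ungated cells held 45222120 and neural progenitor-gated cells 10061463. Astrocyte-gated cells held 4244838 and endothelial-gated cells 3268859. A large share of a gene in a large type need therefore not be a high level.

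In the controls, where endothelial-gated cells were few, they held 36.8% of Flt1, 26.7% of Kdr, 19.8% of Tek and 14.8% of Flt4. They held 2 of 320 UMIs of Angpt2, 2 of 462 of Apln and 0 of 62 of Esm1. The larger endothelial shares of these 3 genes given above are those of the tumors.

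**Figure D1:**
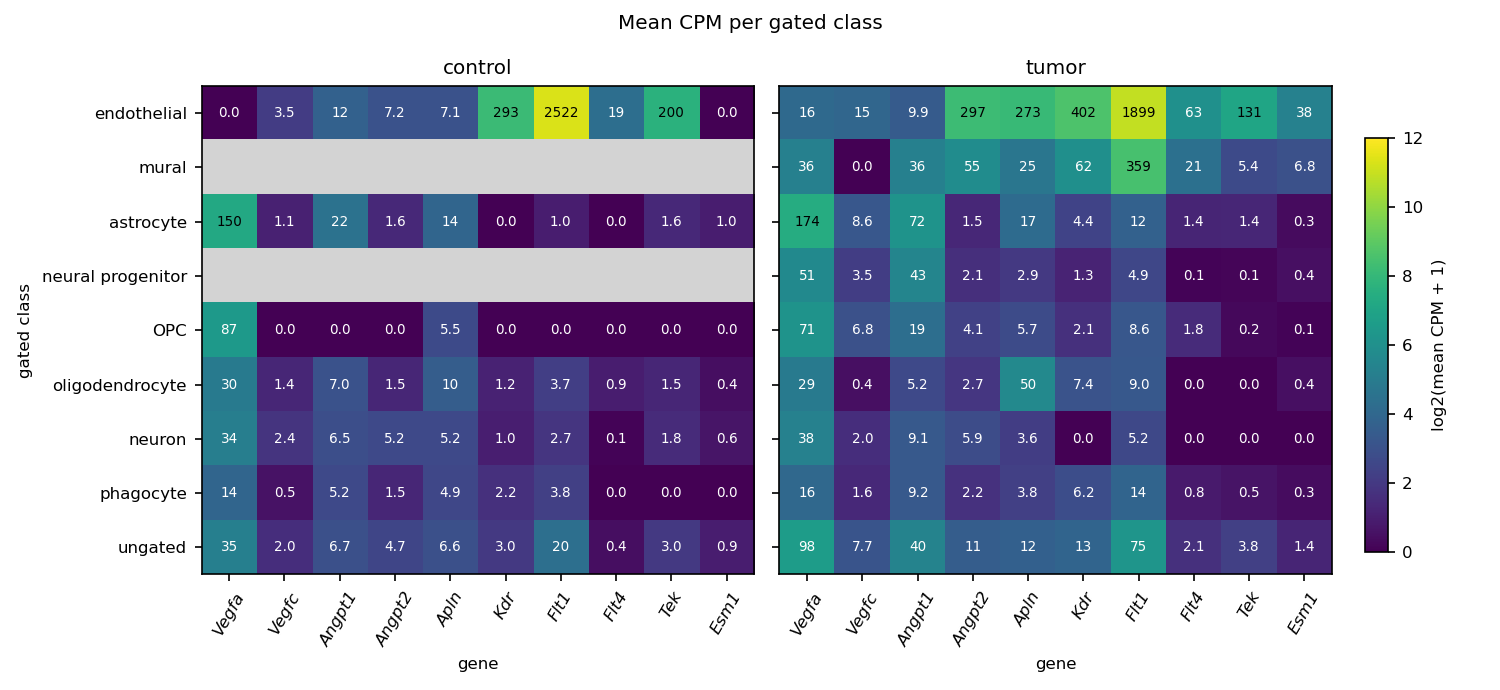
Mean CPM over mice of each of the 10 genes (columns) in gated cell types (rows; OPC, oligodendrocyte progenitors) of control brains and tumors, colored by log2(mean CPM + 1), from mice with at least 10 cells of the type and grey where fewer than 2 mice had them. The receptors stand out in the endothelial rows, Angpt2 and Apln in the tumor endothelial row, and Vegfa in the astrocyte rows. The tumor median of Vegfa was 93.5 CPM in astrocyte-gated cells and 103 CPM in ungated cells.

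The profile over 25 points, each a gated type in 1 condition, gave the same grouping. On log2(CPM + 10), the genes most like Kdr were Flt1 (Pearson r = 0.951), Adgrl4 (0.945), Ptprb (0.940), Fmo2 (0.926) and Sox18 (0.920). Those most like Vegfa were Slc27a1 (0.794), Cyp7b1 (0.786), Adcyap1r1 (0.782), Coq9 (0.758) and Gm3764 (0.753). Flt1 is the other VEGF-A receptor of the 10 genes, and Ptprb encodes the phosphatase VE-PTP, which acts on TEK. The points of 1 condition share libraries, so these correlations are a description.

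Over all cells of a mouse, the receptors were higher in tumors. Kdr stood at 3.32, 3.72, 4.13 and 3.05 CPM in controls 1 to 4 and at 37.5, 15.1, 69.0, 17.1 and 17.8 CPM in tumors 1 to 5. Flt1 stood at 17.1, 22.2, 33.2 and 23.5 CPM in controls and at 179, 109, 464, 30.0 and 71.1 CPM in tumors. Every tumor was above every control for Kdr, and for Flt1 every tumor except tumor 4, which lay within the range of the controls. Flt4 was at 0.541, 0.419, 0 and 0.533 CPM against 2.92 to 9.33 CPM. Tek was at 3.01, 2.93, 3.24 and 3.58 CPM in controls and at 9.49, 3.08, 34.6, 4.97 and 3.48 CPM in tumors, with tumors 2 and 5 inside the range of the controls.

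Between tumors and controls the log2 fold change over all cells was 3.28 ± 0.42 for Kdr (adjusted p = 0.000294), 2.95 ± 0.64 for Flt1 (adjusted p = 0.00353) and 3.91 ± 0.67 for Flt4 (adjusted p = 0.0011; edgeR, SE, 5 and 4 mice). For Tek it was 1.89 ± 0.65 (adjusted p = 0.0277). Tek rested on single libraries: without tumor 3 it was 0.95 (adjusted p = 0.0271), without any 1 control the adjusted p was 0.0573 to 0.0667, and limma voom gave 0.0803. The share of endothelial-gated cells rose with these levels, as given above, and in sums over all cells more endothelial cells and more RNA per cell cannot be told apart.

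The ligands were higher over all cells as well. Vegfa was at 37.3, 36.0, 35.0 and 31.7 CPM in controls and at 35.3, 87.1, 73.2, 71.8 and 107 CPM in tumors, tumor 1 lying among the controls (log2 fold change 1.39 ± 0.33, adjusted p = 0.00565). Angpt1 was at 7.11, 7.16, 5.78 and 6.83 CPM against 22.4, 32.2, 14.4, 52.6 and 40.2 CPM (2.60 ± 0.44, adjusted p = 0.00099). Vegfc was at 1.47, 2.42, 2.03 and 2.08 CPM against 2.54, 9.20, 6.27, 11.1 and 4.10 CPM (2.07 ± 0.50, adjusted p = 0.00609). For Angpt1 and Vegfc no tumor overlapped the controls, and tumor 1 of Vegfc lay just above them.

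Angpt2 was at 3.94, 4.51, 4.95 and 4.55 CPM in controls and at 20.8, 33.1, 21.7, 8.27 and 19.8 CPM in tumors (log2 fold change 2.46 ± 0.37, adjusted p = 0.000588). Apln was at 7.81, 7.44, 5.65 and 5.42 CPM against 25.9, 33.2, 19.4, 15.3 and 16.7 CPM (2.01 ± 0.30, adjusted p = 0.000569). Both were without overlap, with tumor 4 lowest. Esm1 was at 0.927, 1.07, 0.635 and 0.823 CPM against 0.339, 4.81, 0.292, 4.15 and 1.43 CPM (1.80 ± 0.82, adjusted p = 0.0804), and tumors 1 and 3 lay below the controls. Esm1 stayed uncalled in 13 of 16 alternatives, and with 1 mouse left out its adjusted p fell as low as 0.0275 (edgeR). Of the 10 genes 9 were called higher and 6 had every tumor above every control. The background was wide: 61.7% of the 17593 genes tested were called in either direction, 32.3% were called higher, and 23.8% had every tumor above every control.

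**Figure D2:**
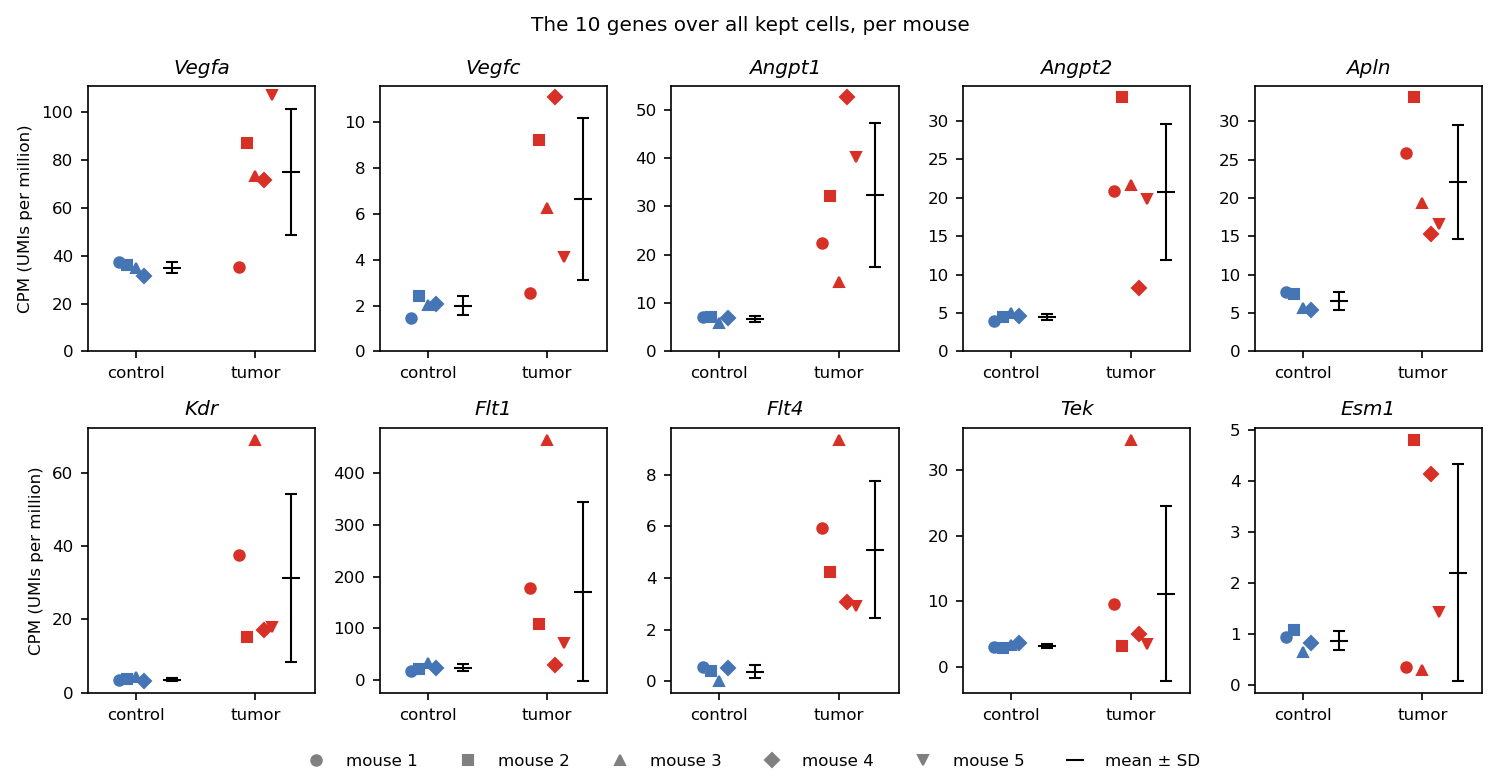
CPM over all kept cells of each mouse (points, linear axis; marker shape gives the replicate number, which pairs nothing) for the 10 genes in 4 controls and 5 tumors, with the mean ± SD of each group beside it. Kdr, Flt4, Angpt1, Angpt2, Apln and Vegfc show no overlap of the groups.

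Within endothelial-gated cells the genes parted. Angpt2 was at 0, 0, 0 and 28.8 CPM in controls and at 264, 477, 162, 147 and 435 CPM in tumors. Apln was at 0, 13.8, 0 and 14.4 CPM in controls and at 253, 461, 96.1, 153 and 399 CPM in tumors. In both, every tumor lay far above every control, and tumors 2 and 5 were highest. The control values rest on 2 UMIs of each gene among the 240090 of the 56 cells, against 875 and 805 among 3268859 in tumors. The ratio of the summed levels was 32.1 for Angpt2 (95% counting interval 8.87 to 266) and 29.6 for Apln (8.16 to 245).

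The fitted log2 fold changes in endothelial-gated cells were 5.19 ± 0.81 for Angpt2 (adjusted p = 0.00156) and 5.07 ± 0.84 for Apln (adjusted p = 0.00225; edgeR, SE, 5 and 4 mice). Under limma voom they were 4.41 (adjusted p = 0.105) and 4.01 (adjusted p = 0.214) and no longer passed. With 2 control UMIs each, both genes passed the filter on low counts through the tumors. The adjusted p-values of edgeR are therefore not taken as support. With control 4 left out no control UMI of Angpt2 remained, and the fitted value of 10.0 is then no bound. Angpt2 RNA in the barcodes of lowest count stood at 0 to 0.998 CPM in control libraries and 7.98 to 19.4 CPM in tumor libraries, below its level in endothelial-gated cells of each tumor.

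Flt4 was at 34.3, 13.8, 0 and 28.8 CPM in control endothelial-gated cells and at 70.5, 63.4, 68.1, 73.9 and 39.9 CPM in tumor ones. Its groups did not overlap, and tumor 5 came closest to the controls. The log2 fold change was 1.99 ± 0.57 (adjusted p = 0.0265), and the ratio over 217 and 4 UMIs was 3.98 (95% counting interval 1.53 to 14.8). The call was lost under limma voom (adjusted p = 0.296), without control 2 (0.0823) and without control 3 (0.0683), and with any 1 of tumors 1 to 4 left out Flt4 did not pass the filter on low counts.

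The other receptors did not pass the test between tumor and control endothelial-gated cells. Kdr was at 378, 290, 303 and 202 CPM in controls and at 407, 200, 523, 444 and 435 CPM in tumors (0.57 ± 0.30 on the log2 scale, adjusted p = 0.197). Flt1 was at 1922, 2322, 3136 and 2709 CPM and at 2105, 1473, 3671, 674 and 1570 CPM (-0.34 ± 0.38, adjusted p = 0.578). Tek was at 275, 166, 144 and 216 CPM and at 120, 43.2, 282, 129 and 82.8 CPM (-0.46 ± 0.45, adjusted p = 0.515). The groups overlapped in all 3 receptors. Tumor 3 was highest in Flt1, Tek and Kdr and lowest in Apln, while tumor 2 was lowest in Kdr and Tek and highest in Angpt2 and Apln.

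Of the 10 genes 6 passed the filter on low counts in endothelial-gated cells, and 3 of them were called higher. Angpt2, Apln and Flt4, with 2, 2 and 4 control UMIs, passed through the tumors, so this count is not read against the background. Their adjusted p-values are likewise not taken as support. The background was 18.2% of 5640 genes called, 9.31% higher, and 10.2% with every tumor above every control. The remaining 4 genes were compared by their CPM with two-sided exact permutation tests, unadjusted for the 4 tests. Esm1 was at 0 CPM in the 4 controls and at 5.22, 52.6, 0, 94.5 and 36.8 CPM in tumors, at least 3.77-fold higher in the summed level against a floor of 3 UMIs over the control group (12.5 CPM; exact p = 0.0794). Of its 154 UMIs 101 came from tumor 4, without which the bound was 1.93-fold, and 2.63-fold to 3.31-fold without any 1 control. Vegfa was at 0 CPM in the 4 controls and at 5.22, 33.7, 5.34, 16.8 and 18.4 CPM in tumors (exact p = 0.0159). In a control gate 1 UMI stood for 13.8 to 34.3 CPM, so levels such as 5.22 CPM could not register there. This p is therefore not read as a difference. No fold is given for Vegfa, since its summed tumor level of 16.8 CPM was below the floor without control 2, 3 or 4 (17.6 to 17.9 CPM) and at 11.9 CPM without tumor 2. These Vegfa levels are below those of the tumors' lowest barcodes, 35.4 to 93.6 CPM. Vegfc (ratio 3.82, 95% counting interval 0.656 to 154, exact p = 0.206) and Angpt1 (ratio 1.10, 0.280 to 9.51, exact p = 0.825) did not differ detectably at this depth.

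**Figure D3:**
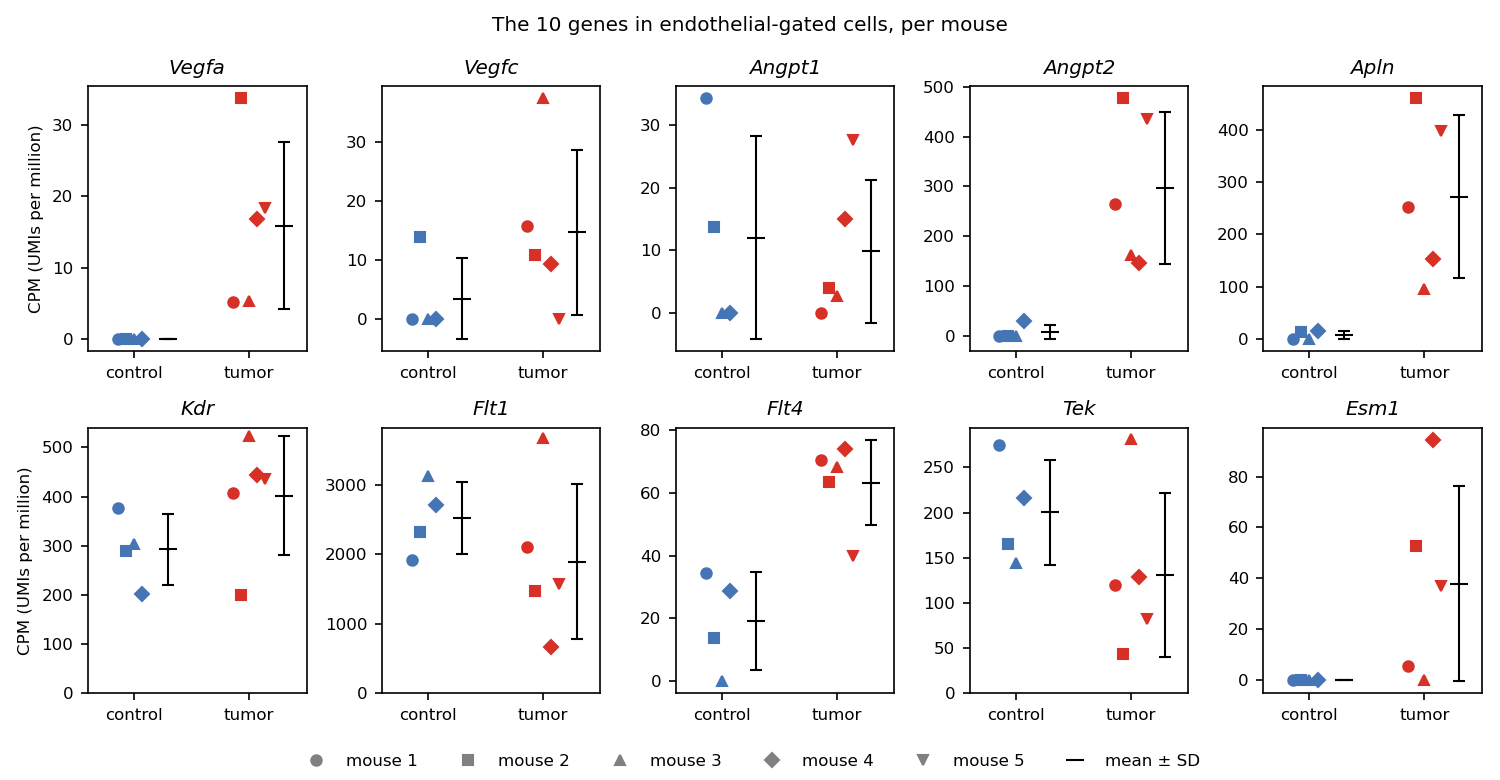
CPM summed over endothelial-gated cells of each mouse (points, linear axis; 4 controls and 5 tumors; marker shape gives the replicate number) for the 10 genes, with the mean ± SD of each group beside it. Angpt2, Apln and Flt4 lie higher in all tumors, while Kdr, Flt1 and Tek overlap.

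Single cells gave the same picture for Angpt2 and Apln. Angpt2 had a UMI in 27.4% of the 646 tumor endothelial-gated cells (exact 95% interval 24.0% to 31.0%) and Apln in 27.2% (23.8% to 30.9%), against 3.57% of the 56 control cells for each (0.435% to 12.3%). These intervals cover counting error over pooled cells only. Single tumors ran from 17.9% to 40.5% for Angpt2 and from 9.93% to 42.0% for Apln. Thinned to 2000 UMIs per cell, which left out 106 and 2 cells, the shares were 23.9% and 23.5% in tumors, and 0% (exact interval up to 6.60%) and 1.85% in controls. Esm1 had a UMI in 4.02% of tumor cells and in 0 of 56 control cells (exact interval up to 6.38%, and up to 5.36% by the one-sided limit of 3 counts), for cells with a UMI and counting error only. Kdr was seen in 61.0% and 67.9%, Tek in 34.8% and 58.9%, Flt1 in 90.9% and 100%, and Flt4 in 24.3% and 7.14% of tumor and control cells. After thinning the order of Kdr turned, with 46.3% in tumors and 37.0% in controls, so no order is read from its shares. Median depths were 3642 UMIs in tumor and 3898.5 in control cells.

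As a cell type that should lack most of these genes (FLT1 is known from monocytes and macrophages), phagocyte-gated cells of the tumors (1894 cells, median 4617 UMIs) had a UMI of Angpt2 in 1.00%, of Apln in 2.27%, of Kdr in 2.53%, of Flt1 in 5.33%, of Flt4 in 0.422%, of Tek in 0.264% and of Esm1 in 0.264%. The endothelial shares lay above this level in the tumors for each of these 7 genes. Flt1 in phagocyte-gated cells was at 11.5 to 17.1 CPM in tumors and at 0 to 10.8 CPM in controls, on 5 control UMIs. In each tumor that level lay below the Flt1 of the lowest barcodes of the same library (35.9, 99.2, 253, 71.5 and 56.4 CPM). It is therefore not read as expression, which the comparison cannot exclude. In the controls the share of Angpt2 and of Apln in endothelial-gated cells had an interval that reached into the phagocytes' range (0.628% and 1.67% of 478 control phagocytes).

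**Figure D4:**
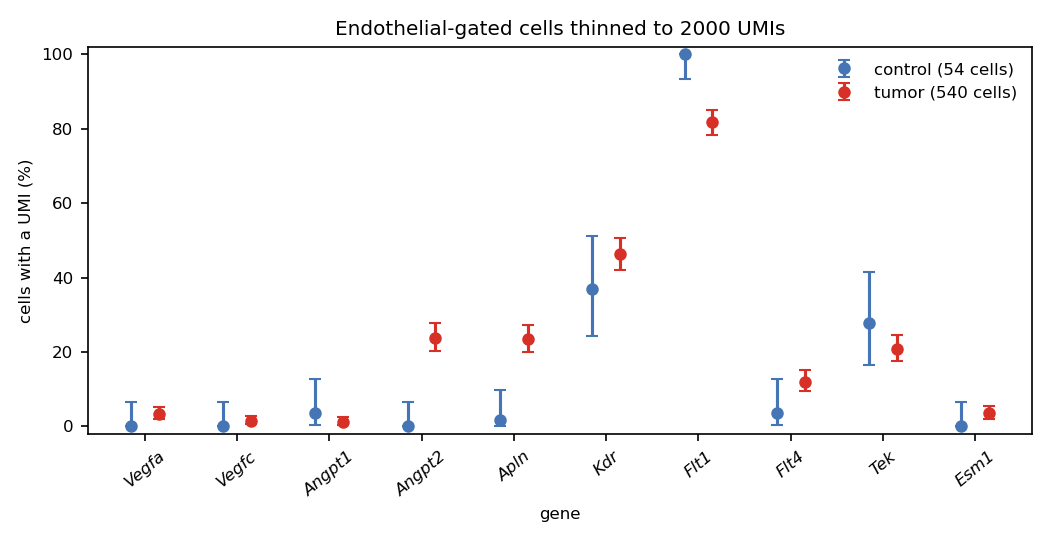
Share of endothelial-gated cells with at least 1 UMI of each gene after thinning to 2000 UMIs, in tumors (540 cells) and controls (54 cells), with exact 95% intervals, which cover counting error only. Angpt2 and Apln are at 23.9% and 23.5% of tumor cells and at 0% and 1.85% of control cells.

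Angpt2 and Apln were found in the same cells. In the tumors, 63.3% of the 177 endothelial-gated cells with an Angpt2 UMI also had one of Apln, against 13.6% of the cells without. The order held in each tumor: 61.3% against 3.03% in tumor 1, 78.3% against 17.8% in tumor 2, 40.7% against 3.23% in tumor 3, 66.7% against 27.5% in tumor 4 and 53.1% against 23.4% in tumor 5. Of 26 cells with an Esm1 UMI, 21 also had Angpt2 (80.8%). Cells with Angpt2 were deeper than cells without, with pooled medians of 4062 and 3430 UMIs. Within tumors 1 to 5 the medians were 3165 against 2066, 4664 against 3281.5, 3930 against 2806.5, 6477 against 6189 and 3151 against 3047 UMIs, and the part of depth in the shared detection was not tested. Angpt2 and its receptor did not show this. Angpt2 was seen in 20.0% of the 225 cells with a Tek UMI and in 31.4% of the cells without, although cells with Tek were deeper (6032 against 3170 UMIs). Single tumors differed: the order was the opposite in tumor 1 (31.7% and 20.2%) and close to even in tumor 2 (39.1% and 40.2%), and ran as in the pool in tumors 3 (13.1% and 23.9%), 4 (14.5% and 24.3%) and 5 (20.0% and 45.3%, on 15 cells with Tek). Tumors 3 and 4 gave 84 and 62 of the 225 cells and had the lowest shares of Angpt2, so the pooled values mix the tumors.

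Vegfa and Angpt1 were higher in astrocyte-gated cells than in the other cells of the same mouse, by 1.43 ± 0.30 (adjusted p = 0.00113) and 1.50 ± 0.22 (adjusted p = 3.47e-05) on the log2 scale (edgeR, SE, 9 mice), where 27.2% of 12733 genes were called, 11.3% higher and 15.9% lower. The value of Vegfa averages over the mice, and in tumors 4 and 5 its astrocyte-gated level lay below that over all cells. Kdr (-2.70), Flt1 (-3.56) and Angpt2 (-3.03) were lower, and Apln was at -0.04 (adjusted p = 0.95). Vegfa in astrocyte-gated cells was at 162, 146, 146 and 144 CPM in controls and at 62.0, 148, 498, 68.2 and 93.5 CPM in tumors. Tumor 3 lay far above the controls and 3 tumors lay below them, and the difference between groups did not pass the test (0.19 ± 0.55, adjusted p = 0.834). Without tumor 3 it turned to -0.62.

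Angpt1 in astrocyte-gated cells was at 0, 27.4, 26.9 and 32.7 CPM in controls and at 50.1, 52.5, 62.2, 107 and 85.7 CPM in tumors, with no overlap. Its log2 fold change was 1.59 ± 0.45 (adjusted p = 0.0202, edgeR), in a comparison that called 26.4% of 6092 genes, 12.7% higher. The call was lost under limma voom (adjusted p = 0.194), without control 2 (0.0590) and without control 3 (0.0555). Angpt1 had a UMI in 21.2% of 1179 tumor and 7.98% of 188 control astrocyte-gated cells, with median depths of 2820 and 3646 UMIs. The gate held different Leiden clusters in the groups: 85.1% of the control cells lay in cluster 6, and 62.1% of the tumor cells in cluster 15. A transgene UMI was seen in 4.70%, 26.9%, 4.30%, 61.9% and 17.7% of the astrocyte-gated cells of tumors 1 to 5, and tumors 4 and 5 had the highest Angpt1. The part of either in the level of Angpt1 was not tested.

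Both ligands were also read in cells with transgene RNA. Astrocyte-, oligodendrocyte progenitor-, ependymal- and neural progenitor-gated and ungated cells with a UMI of the fusion or luciferase numbered 70, 803, 82, 3518 and 1013 in tumors 1 to 5. Pooled over the tumors, they held 3858 of 6603 Vegfa UMIs and 2100 of 3397 Angpt1 UMIs, with 39670702 of all 83308139 UMIs. Vegfa in them was at 32.7, 124, 78.8, 83.2 and 146 CPM and Angpt1 at 61.8, 46.5, 40.2, 56.8 and 41.3 CPM. Angpt1 varied little between the 5 tumors (49.3 ± 9.58 CPM, SD, n = 5), whereas Vegfa was lowest in tumor 1 and highest in tumor 5. The barcodes of lowest count of the same libraries were taken as a measure of free RNA. With at least 500 UMIs each in the tumors, they may also hold cells. In them Vegfa was at 35.4, 74.3, 83.8, 93.6 and 74.7 CPM and Angpt1 at 30.2, 28.6, 13.1, 65.7 and 34.9 CPM in tumors 1 to 5. Vegfa of the transgene cells lay above that level in tumors 2 and 5 alone, and Angpt1 in every tumor but tumor 4. Vegfa of the astrocyte-gated cells lay above it in every tumor but tumor 4. Transgene UMIs also occurred in 0.709% to 28.5% of phagocyte-gated cells and in 0% to 29.4% of endothelial-gated cells of the tumors, so a single UMI does not fix the lineage of a cell.

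Neural progenitor-gated cells, 20, 103, 53, 384 and 1083 in tumors and at most 6 in a control, had Vegfa at 0, 42.8, 30.3, 83.6 and 99.2 CPM and Angpt1 at 62.4, 57.6, 13.6, 54.3 and 25.7 CPM. Vegfa lay below the lowest barcodes of the same library in tumors 1 to 4 and above them in tumor 5. Angpt1 lay below them in tumors 4 and 5. Levels below the lowest barcodes are not read as expression, which the comparison cannot exclude. Phagocyte-gated cells of the tumors held Vegfa at 5.68 to 24.6 CPM. The lowest barcodes therefore need not give the free RNA of a cell. In cells gated as oligodendrocyte progenitors, Angpt1 was at 0 CPM in the 4 controls and at 0, 39.4, 8.27, 37.1 and 11.5 CPM in tumors. Only tumor 2 lay above its lowest barcodes there, so no gain over the controls is read from these cells. Vegfa there was at 98.9, 88.4, 74.7 and 87.6 CPM in controls and at 11.5, 90.3, 132, 43.4 and 76.4 CPM in tumors, which overlapped, tumors 1 and 4 lying below their lowest barcodes. The lowest barcodes differed between the groups as well: Vegfa in them was at 17.1 to 22.1 CPM in controls and at 35.4 to 93.6 CPM in tumors, and Angpt1 at 6.04 to 8.52 and 13.1 to 65.7 CPM. The part of free RNA in the levels of either ligand was not tested. In ungated cells, the largest holder of both, Vegfa was at 38.9, 35.9, 34.5 and 32.6 CPM in controls and at 42.4, 121, 103, 84.7 and 140 CPM in tumors, below its lowest barcodes in tumor 4.

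**Figure D5:**
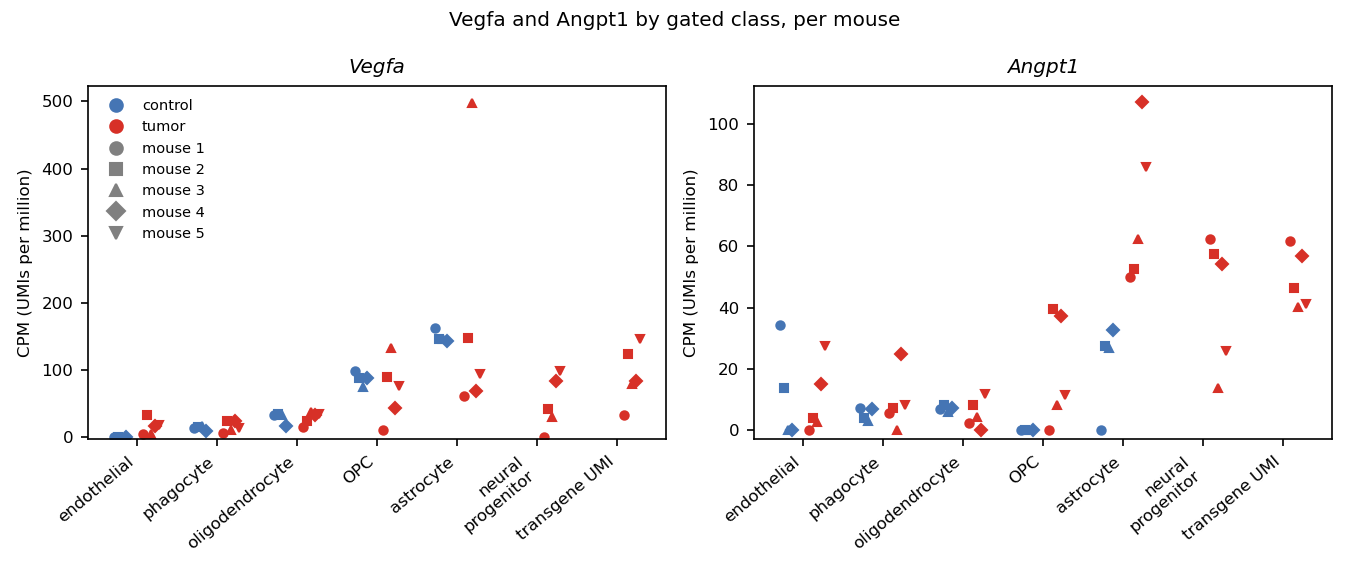
CPM of Vegfa and Angpt1 in each mouse (points, linear axis; blue controls, red tumors) by cell type (OPC, oligodendrocyte progenitors), for types with at least 10 cells in a mouse, and in cells with a transgene UMI. Vegfa of astrocyte-gated cells is at 144 to 162 CPM in controls and at 62.0 to 498 CPM in tumors, and Angpt1 of the same cells is higher in each tumor.

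Phagocyte-gated cells, which hold microglia and macrophages, were low in all of the genes that could be tested. Of the 10 genes 7 passed the filter and all 7 were lower than in other cells, where 53.6% of 13350 genes were called, 30.2% lower. Vegfa was at -1.75 ± 0.19 (adjusted p = 6.91e-06), Angpt1 at -1.47 ± 0.36 (adjusted p = 0.00382) and Tek at -3.76 ± 0.62 (adjusted p = 0.000257) on the log2 scale (edgeR). Vegfa in phagocyte-gated cells was at 14.4, 15.8, 17.1 and 8.98 CPM in controls and at 5.68, 24.0, 10.6, 24.6 and 13.5 CPM in tumors (0.79, adjusted p = 0.231). The groups overlapped, and the comparison of tumor and control phagocytes called 39.2% of 8851 genes. In the macrophage-marked part of the phagocytes Vegfa was at 10.8, 25.0, 24.4, 31.1 and 72.1 CPM in tumors 1 to 5. Both the tumor levels of the whole gate and those of the macrophage-marked part lay below the Vegfa of the lowest barcodes in all 5 tumors. They are therefore not read as expression, which the comparison cannot exclude.

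Mural-gated cells, which wrap vessels, could be compared with other cells in the 5 tumors alone, with 14 to 61 cells each. Angpt2 was higher in them by 1.54 ± 0.39 (adjusted p = 0.00922), Flt1 by 1.69 ± 0.51 (adjusted p = 0.0281) and Flt4 by 2.05 ± 0.69 (adjusted p = 0.0495), and Vegfa was lower (-1.16 ± 0.35, adjusted p = 0.0275; edgeR), where 14.9% of 12446 genes were called, 6.9% higher and 8.03% lower. The endothelial marker list summed to 512 to 2087 CPM in these mural-gated cells, and its part in the receptor levels was not tested. In tumor 3 the Flt1 of mural-gated cells (152 CPM) lay below that of the lowest barcodes and Flt4 was at 0. All 4 calls were lost on leaving out at least 1 tumor, with adjusted p-values of up to 0.0718 for Angpt2, 0.106 for Flt1, 0.264 for Flt4 and 0.156 for Vegfa. Angpt1, for which mural cells are a known source, was at 31.3, 17.9, 86.1, 13.5 and 32.5 CPM and did not pass the test (0.06 ± 0.57, adjusted p = 0.972).

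Apln was also read in oligodendrocyte-gated cells. It was at 5.21 to 15.6 CPM in the 4 controls and at 58.2, 59.2, 62.6, 21.7 and 46.7 CPM in tumors, each tumor above each control, although tumors 4 and 5 held 13 and 23 such cells. This cell type was chosen after its values were seen, so no test is given. The gate did not hold the same Leiden clusters in both groups: 91.4% of the tumor cells lay in cluster 19, which held 7.43% of the control cells, while 34.01% of the control cells lay in cluster 10 and most others in clusters named neuron or left unnamed. The gated cells held a median of 9 of the 10 markers in tumors and 5 in controls, and the part of this in the level of Apln was not tested. The means were 49.7 ± 16.7 (SD, n = 5) and 10.5 ± 4.69 CPM (SD, n = 4). Apln had a UMI in 21.0% of 291 tumor and 3.23% of 835 control oligodendrocyte-gated cells, and in 11.8% and 1.78% after thinning. The lowest barcodes held Apln at 12.5, 27.0, 14.3, 37.8 and 26.6 CPM in tumors 1 to 5, so the level of tumor 4 lay below that of its own library, and at 7.53 to 13.9 CPM in controls. Oligodendrocyte-gated cells held 4.50% of the tumors' Apln UMIs (0.348% to 17.0%), against 4.20% in astrocyte-gated and 32.9% in ungated cells.

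Around these 10 genes, 3 lists of related genes were counted. Of 13 other genes of the VEGF, angiopoietin and apelin axes, 11 could be tested over all cells, of which 6 rose and 2 fell in tumors (median log2 fold change 0.89, against 0.04 over all genes), where 61.7% of all genes were called and 32.3% were called higher. Aplnr, the apelin receptor, had 2 UMIs in controls and 300 in tumors, a ratio of 128 (95% counting interval 35.0 to 1058; adjusted p = 0.000168), and passed the filter through the tumors. Tie1, the partner of TEK, rose by 3.45 (adjusted p = 0.00023) and Pgf, a ligand of FLT1, by 4.30 (adjusted p = 0.000648). Ccbe1, a cofactor of VEGF-C processing, was at -2.97 (adjusted p = 0.00384) and Vegfd at -1.23 (adjusted p = 0.0254; edgeR).

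In endothelial-gated cells 7 genes of the axis list were tested and 1, Aplnr, was called. Aplnr had 0 UMIs in the controls and 223 in tumors (10.7 to 121 CPM), at least 5.46-fold higher against the floor of 3 UMIs over the control group (3.42-fold without tumor 4), with an adjusted p of 0.0395 in edgeR. Aplnr passed the filter through the tumors, so the count is not read against all genes and this adjusted p is not taken as support. That call was lost under limma voom (adjusted p = 0.535) and on leaving out any 1 control (0.0720 to 0.0975). Pgf was also called in astrocyte-gated cells (3.30 ± 0.68, adjusted p = 0.00506), the only one called of 4 axis genes tested there, where 26.4% of all genes were called. In phagocyte-gated cells Nrp2, a co-receptor, was called among 3 tested (0.52 ± 0.19, adjusted p = 0.0499), where 39.2% of all genes were called, 20.4% higher.

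Of 15 genes of sprouting and immature endothelium, 14 were tested over all cells and 12 rose while 1 fell (median 2.82, against 32.3% of all genes called higher). In endothelial-gated cells 10 were tested and 8 rose. Of the 8, Igfbp3, Dll4, Adm, Mcam, Lamb1 and Nid2 had 0 to 3 control UMIs and passed the filter through the tumors, so the count is not read against the 9.31% of all genes called higher. Col4a2 and Col4a1, collagens of the basement membrane, rose by 3.17 ± 0.39 (adjusted p = 0.000396) and 2.83 ± 0.36 (adjusted p = 0.00064). Dll4, the Notch ligand of tip cells, had 1 UMI in controls and 262 in tumors, a ratio of 19.2 (95% counting interval 3.42 to 763; adjusted p = 0.00221). Adm, which encodes the vasoactive peptide adrenomedullin, had 2 and 790, a ratio of 29.0 (8.00 to 240; adjusted p = 0.00277, and 0.178 under limma voom). Igfbp3, which binds insulin-like growth factors, had 0 and 814 UMIs and was at least 19.9-fold higher against the same floor (12.8-fold without tumor 2). Plvap, a diaphragm protein of leaky vessels, was the 1 gene that fell over all cells (-1.54, adjusted p = 0.0028). Endothelial-gated cells held 1 of its 773 control UMIs and 11 of its 270 tumor UMIs. The ratio within them was 0.808 (95% counting interval 0.117 to 34.8), so the fall is not read as one of vessels.

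Of 10 target genes of the hypoxia-inducible factors, 9 were tested over all cells, 3 rose and 1 fell (median 0.67), a share near the 32.3% of all genes called higher. Slc2a1, the glucose transporter of brain endothelium, rose by 3.72 (adjusted p = 0.000653), Ldha of glycolysis by 2.14 (adjusted p = 0.00135) and Egln3, a prolyl hydroxylase, by 2.34 (adjusted p = 0.00631), whereas Pdk1 was at -1.25 (adjusted p = 0.0233). In endothelial-gated cells 5 were tested and 2 rose, Ldha by 1.89 ± 0.36 (adjusted p = 0.00435) and Slc2a1 by 1.90 ± 0.40 (adjusted p = 0.00667), with a list median of 0.05, where 9.31% of all genes were called higher. In phagocyte-gated cells 2 of 6 rose and 1 fell, Ndrg1 (-2.47, adjusted p = 0.00647), and in astrocyte-gated cells 1 of 4 rose, Ldha (1.38, adjusted p = 0.02; edgeR throughout), where 20.4% and 12.7% of all genes were called higher.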

How the data were processed

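Droplet libraries of 5 tumors and 4 control brains were analysed. The deposited files hold raw UMI counts (genes by barcodes), which the authors made with Cell Ranger (6.1.2 per the file headers, 7 with Scanpy 1.8.2 in the submitters' processing notes) on mm10, without normalization. In control 4 the lists of genes and barcodes were shorter than the matrix, so its mouse genes were read by the order of the other libraries. The members and lists of genes, and the tests, were chosen with earlier results of these data known.

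Of the 10000 largest barcodes per library, those with 200 to 6000 genes were kept. A mixture of 2 (scikit-learn 1.9.0) then used each barcode's gene count along with its mitochondrial share. Its component of higher mitochondrial share was removed, which left 2412, 3130, 1597, 5342 and 3749 barcodes in tumors 1 to 5. A mitochondrial limit of 10% left 1267, 3130, 4445, 9973 and 9926 there, and fewer than the mixture in each control. Median UMIs of kept cells in tumors 1 to 5 were 2068, 4536, 2452, 6523.5 and 3820. With the limit they were 2451, 4280.5, 981, 4483 and 1853. Barcodes of highest Scrublet score (Scanpy 1.11.5, 0.8% per 1000 barcodes) were dropped as doublets. UMI counts were summed per mouse and gated type of at least 10 cells and compared in edgeR 4.0.16 under R 4.3.3 (quasi-likelihood fit, TMM factors, filterByExpr). P-values were adjusted by Benjamini-Hochberg over all genes tested, with a threshold of 0.05. Types were compared within mice with the mouse as a block. Scripts were tested on simulated data. Named genes are the 10 genes, up to 4 genes of smallest p per direction in each list, and the 5 most alike profiles of Vegfa and Kdr among genes of at least 10 CPM in some type. Replicate mice differed by more than sampling noise. The labels do not say whether mice shared a litter or day. Intervals and floors cover counting error only. Alternatives were DESeq2 1.42.0, limma voom (3.58.1), no filter, the replicate number as a block, each mouse left out, all barcodes, a mitochondrial limit of 10%, no doublets removed, a gate of 4 markers and Leiden clusters (igraph 0.11.9). The study's other experiments were not analysed here.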

Additional observations from a re-analysis of the deposited data

Results flagged for a closer look

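In 5 of 52 groups of 4 or 5 mice, the highest or lowest mouse stood apart from the others by Dixon's criterion, and chance alone gives about 1 in 20. In tumor 3, Tek over all cells was at 34.6 CPM, against 3.08 to 9.49 CPM in the other tumors. In the same tumor Vegfa of astrocyte-gated cells was at 498 CPM, against 62.0 to 148 CPM. Vegfa of astrocyte-gated cells in control 1 was at 162 CPM, against 144 to 146 CPM in the other controls. In endothelial-gated cells, Angpt2 in control 4 (28.8 CPM) and Vegfc in control 2 (13.8 CPM) were the only control values above 0, and they rest on 2 UMIs and 1 UMI. With the other controls at 0 any count meets the criterion, so these 2 flags are not set against that rate.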

How the results depend on the processing

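The number of genes called in endothelial-gated cells (1029) was 1867 without the filter on low counts and 1886 in Leiden clusters, and ran from 530 to 1007 when 1 mouse was left out, lowest without control 2 (530) and control 4 (606). In astrocyte-gated cells it (1609) was 2539 without the filter, 2833 with all barcodes and 2591 in Leiden clusters, and ran from 1002 (without control 2) and 1061 (without control 4) to 1818. limma voom moved the split of calls: 198 higher and 545 lower in endothelial-gated cells (525 and 504 in edgeR), 1178 and 1782 in phagocyte-gated cells (1804 and 1662), and 286 and 929 in astrocyte-gated cells (773 and 836). The replicate numbers did not pair the mice (correlations of same-numbered mice -0.003 to 0.051). With the number as a block 8855 genes against 10856 were called over all cells and 957 against 1029 in endothelial-gated cells.

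Only differences that missed the threshold changed sign. Flt1 in endothelial-gated cells was at 0.0032 without the filter. Vegfa in astrocyte-gated cells was at -0.24 under limma voom, -0.071 with the block, -0.37 in Leiden clusters and -0.62 to 0.43 with 1 mouse left out. Angpt1 in mural-gated against other cells was at -0.14 in DESeq2, -0.0097 without the filter, -0.027 with all barcodes, -0.23 with the stricter gate, -0.61 in Leiden clusters and -1.08 to 0.65 with 1 mouse left out. Apln there ran from -0.18 to 0.79 with 1 mouse left out, and Tek was at 0.087 at the mitochondrial limit, 0.49 in Leiden clusters and -2.17 to 0.14 with 1 mouse left out. Apln in astrocyte-gated against other cells was at 0.093 in DESeq2, 0.21 under limma voom, 0.025 in Leiden clusters and -0.32 to 0.25 with 1 mouse left out. The cause was not tested. For the 10 genes, 689 values kept direction and side of the threshold, 31 fell below it, 7 rose above it and 22 changed sign. The larger share of endothelial-gated cells held under each alternative, at 3.52 to 5.37 percentage points, but the control mean (0.294%) was 0.0441% with all deposited barcodes, not all of which need be cells, 0.0771% at the mitochondrial limit and 0.674% in Leiden clusters, so no ratio of the shares is given. At the mitochondrial limit tumor and control endothelial-gated cells were not compared (2 to 4 cells per control), and endothelial-gated against other cells was fitted on the 5 tumors (4191 of 12009 genes called). Mural-gated cells without a control were not run. The 56 control endothelial-gated cells limit every comparison made within that type.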
